A study of Mus musculus with 24 samples.

Results

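Messenger RNA of the cytochrome P450 genes of families 1 to 3 was measured in mouse liver with and without hepatocyte PPARα, after vehicle or the β3-adrenergic agonist CL316243. The members were all genes whose array annotation carries a symbol of Cyp1, Cyp2 or Cyp3 followed by a subfamily letter and a number. There were 57 such genes on 77 probes, of 37074 genes on the array, and 49 of them, on 62 probes, passed the filter on dim signal. The study used 24 male C57Bl/6J mice, 6 in each of 4 groups, and 1 single-colour array of liver RNA per mouse. The 4 groups were LWT mice given vehicle, LWT mice given CL316243, LKO mice given vehicle and LKO mice given CL316243. LWT mice express PPARα in hepatocytes and LKO mice do not, as far as the series title says. CL316243, called Beta3 in the group names, was given by gavage at 3 mg/kg in 0.5% carboxymethyl cellulose late in the light phase (Zeitgeber time 10 h). The livers were collected in the dark phase, at Zeitgeber time 16 h. Vehicle was the carboxymethyl cellulose, and all mice had free access to standard diet. Neither the promoter behind the deletion, nor the stretch of Ppara deleted, nor the age of the mice is given in the sources used here, and other liver cells of LKO mice may still carry the receptor.

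P450 enzymes of families 1 to 3 are haem proteins of the endoplasmic reticulum that oxidise drugs, toxins, steroids and fatty acids, and they take electrons from P450 oxidoreductase, the product of Por. Their genes lie in clusters of close paralogs, and many are induced through receptors that sense foreign compounds. The aryl hydrocarbon receptor (AhR) acts on Cyp1 genes, the constitutive androstane receptor (CAR, Nr1i3) on Cyp2b genes, and the pregnane X receptor (PXR, Nr1i2) on Cyp3a genes. Liver P450 expression is also known to fall during inflammation, to differ between male and female mice under growth hormone, and to be concentrated around the central vein for genes such as Cyp2e1 and Cyp1a2. PPARα is a lipid sensor whose classical P450 targets belong to another family, Cyp4a.

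Because paralogs are so alike, the probes decide what can be told apart. Positions are of genome build mm9, as the array annotation gives them, and sequences run 5′ to 3′ in the direction of the transcript. The probes below each hold at least 1 open reading frame over their 60 bases and belong to genes among the main results. That of Cyp2a22 lies on chromosome 7 at 27722746-27722805 (minus strand) and that of Cyp2d34 on chromosome 15 at 82447966-82448025 (minus strand). Neither lists a transcript matched to another gene, though 1 accession listed for the Cyp2a22 probe could not be matched to any gene. The Cyp3a11 probe spans an intron on chromosome 5 between 146672058 and 146673925 (minus strand) and also lists transcripts of Cyp3a41a, Cyp3a41b and Cyp3a44.
Cyp2a22: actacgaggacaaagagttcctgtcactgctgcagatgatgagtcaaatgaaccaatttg
Cyp2d34: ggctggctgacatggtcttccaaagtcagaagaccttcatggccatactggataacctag
Cyp3a11: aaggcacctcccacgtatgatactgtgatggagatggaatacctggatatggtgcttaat

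The probes of Cyp3a25 (chromosome 5, 146789175-146789234, minus strand) and Cyp3a57 (chromosome 5, 146151322-146151381, plus strand) share a stretch of 52 bases with 49 identical. Within that stretch, counted from its 5′ end with the Cyp3a25 base first, the differences are G17T, T47C and A49G. The first 30 bases of the stretch are shown with the differing base in capitals.
Cyp3a25: acccatcatcctaaagGttgtgtcaagaga
Cyp3a57: acccatcatcctaaagTttgtgtcaagaga
The Cyp2c67 and Cyp2c68 probes share 59 aligned bases with 55 identical. In addition, 9 of the 49 tested genes are represented by a probe whose annotation lists a transcript of another gene. Among these are Cyp2c37 (which lists Cyp2c50), Cyp2b9 (Cyp2b10), Cyp2a4 (Cyp2a5), Cyp2c40 (Cyp2c68), Cyp2c69 (Cyp2c40, Cyp2c67 and Cyp2c68) and Cyp3a25 (Cyp3a59). In all, 11 tested genes had a probe of either kind, and 38 had neither. Signal from such pairs cannot be told apart here, and the counts below are also given over the 38. Sharing was judged by listed transcripts and probe alignment alone. Cross-hybridisation was not tested, so probes of the 38 may still pick up signal of paralogs.

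A level below is log2 of the processed signal minus the 75th percentile of its array, so that 0 marks the 75th percentile. Differences are log2 with their standard error from limma fitted to all 24 arrays, and a gene is called when its adjusted p, Benjamini-Hochberg over the 21331 genes tested, is under 0.05. The 75th percentile of intensity ranged from 397.4 to 577.7 over the arrays, and 26985 to 34202 probes per array were well above background. No spot was saturated. The brighter Ppara probe was at 5.68 ± 0.16 in LWT and 5.01 ± 0.15 in LKO vehicle livers (SD, n = 6 each). That difference was -0.68 and was not called (limma, adjusted p 0.158). With CL316243 the levels were 6.23 ± 0.27 and 4.32 ± 0.64, a difference of -1.91 (limma, adjusted p 3.6e-07). A dimmer Ppara probe gave 4.42 ± 0.17 and 3.50 ± 0.17 for vehicle, then 5.05 ± 0.30 and 2.96 ± 0.60 for CL316243 (LWT first). For both probes, every LKO mouse lay below every LWT mouse of the same treatment. The probes may lie outside the deleted part, so the remaining signal checks the labels only in part. Of 10 hepatocyte markers 9 passed the filter, and their summed linear level, relative to the 75th percentile, was between 3970 and 5680 in every liver. In such tissue, fewer cells of a type and less RNA per cell cannot be told apart.

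With CL316243 more P450 genes were called lower than higher in both genotypes, but in LWT a smaller share of members than of all genes was called. In LWT livers 13 of the 49 tested genes were called (26.5%), 2 higher and 11 lower, where 38.3% of all genes tested were called, 18.9% higher and 19.4% lower. In LKO livers 32 were called (65.3%), 5 higher and 27 lower, where 40.3% of all genes were called, 20.9% higher and 19.4% lower. The median difference over the tested members was -0.11 in LWT and -0.33 in LKO, beside 0.01 and 0.03 over all genes. The CL316243 groups did not overlap with their vehicle groups for 3 members in LWT (6.12%) and 15 in LKO (30.6%), beside 20.4% and 20.8% of all genes tested. Over the 38 genes with neither kind of shared probe, 11 were called in LWT (2 higher, 9 lower) and 22 in LKO (4 higher, 18 lower). Of the tested members, 11 were called in both genotypes, 2 in LWT alone and 21 in LKO alone, but the difference between the genotypes' responses was itself called for 4 members, 1 with a more positive and 3 with a more negative response in LKO (8.16%), where 5.41% of all genes were called, 2.17% more positive and 3.24% more negative.

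**Figure D1:**
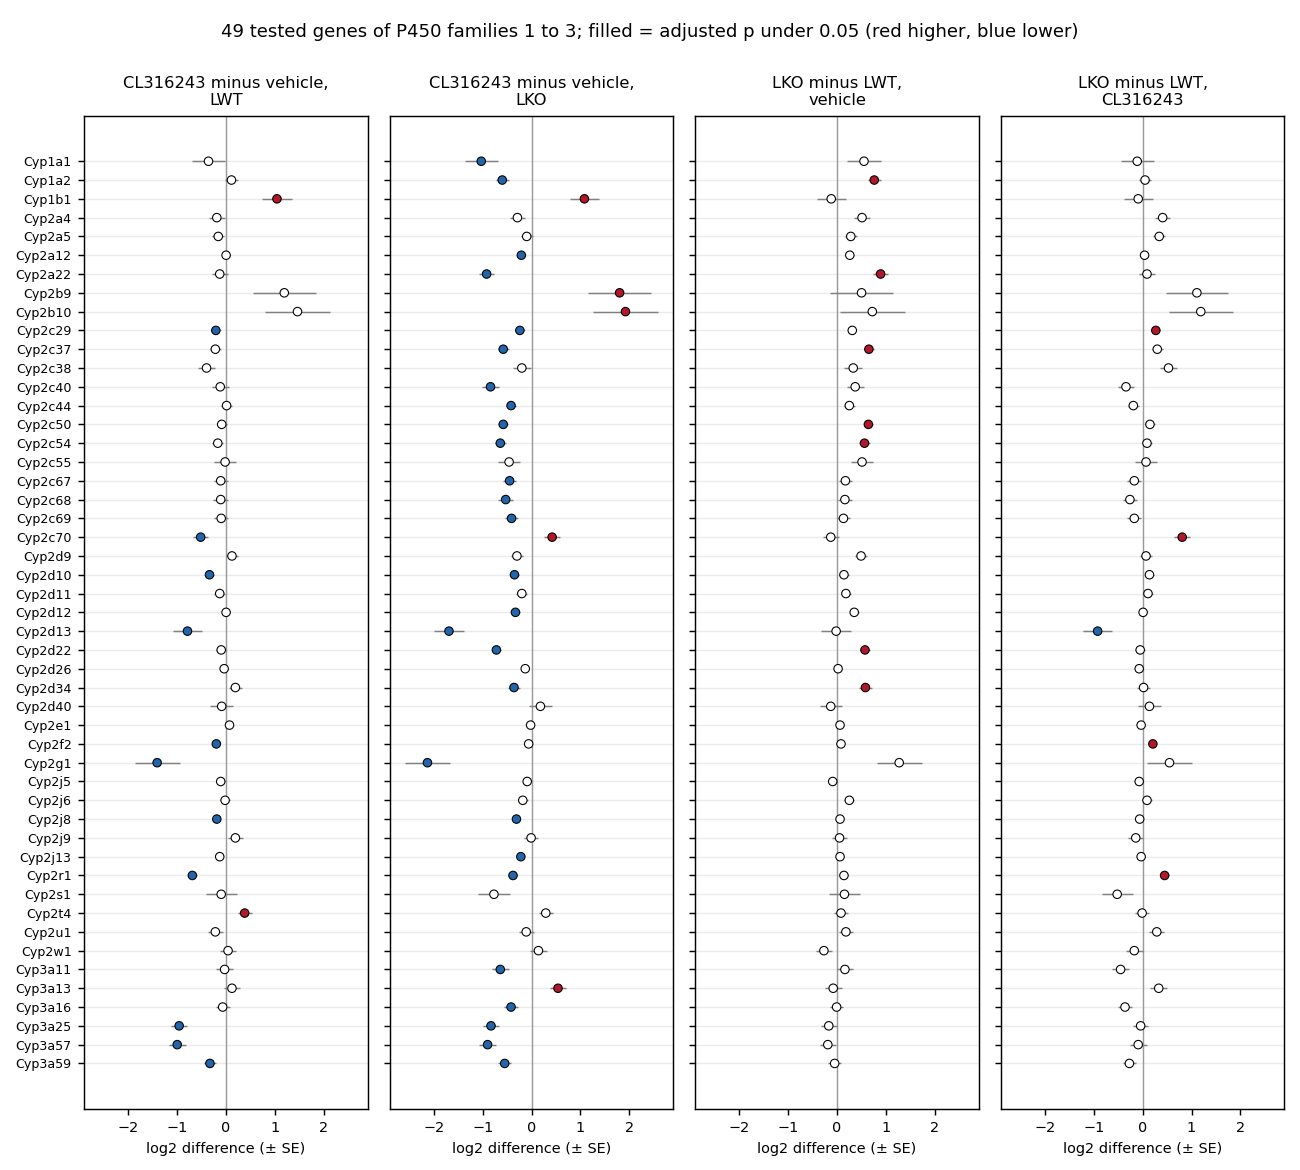
Log2 differences (x axis, ± SE) of the 49 tested genes (y axis, by subfamily) for CL316243 minus vehicle in LWT and in LKO and for LKO minus LWT under vehicle and under CL316243. Filled points were called (red higher, blue lower); the LKO panel holds 27 blue points against 11 in the LWT panel, and the panel for LKO minus LWT under vehicle holds 7 red points.

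Without CL316243, 7 P450 genes were higher in LKO than in LWT livers, and every called member was higher. That is 14.3% of the 49 tested, where 1.18% of all genes were called, 0.398% higher and 0.778% lower, and 18 members had an unadjusted p under 0.05. The median member difference was 0.17, beside -0.02 over all genes. The 7 genes are Cyp1a2, Cyp2a22, Cyp2c37, Cyp2c50, Cyp2c54, Cyp2d22 and Cyp2d34. All but Cyp2c37, so 6 of them, are among the 38 with neither kind of shared probe, although the Cyp2c37 probe lists Cyp2c50. Some of the 7 have probes that moved in parallel with a paralog's, as given below, and may not be separate changes. Cyp1a2, which oxidises caffeine and aromatic amines, ranged over 2.77, 3.05 and 3.31 (lowest, median and highest mouse) in LWT vehicle livers and over 3.35, 3.87 and 4.30 in LKO vehicle livers. Its groups did not overlap, and the difference was 0.76 ± 0.13, or 1.7-fold (limma, adjusted p 0.00145). Cyp2a22, a paralog of the coumarin hydroxylase Cyp2a5, ranged over 2.77, 3.30 and 3.79 in LWT and 3.78, 4.23 and 4.63 in LKO. The lowest LKO mouse lay just under the highest LWT mouse, and the difference was 0.89 ± 0.16 (1.85-fold, limma, adjusted p 0.00353).

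Cyp2c37, Cyp2c50 and Cyp2c54 encode P450s of the Cyp2c cluster that oxidise arachidonic acid, and were higher together in LKO vehicle livers. Cyp2c50 ranged over 6.08, 6.63 and 6.76 in LWT and 7.09, 7.20 and 7.30 in LKO, and Cyp2c37 over 6.28, 6.79 and 6.88 against 7.27, 7.37 and 7.47. Neither gene's groups overlapped. The differences were 0.64 ± 0.10 for Cyp2c50 (1.55-fold, limma, adjusted p 0.000798) and 0.65 ± 0.11 for Cyp2c37 (1.57-fold, limma, adjusted p 0.000847). Cyp2c54 followed at 0.56 ± 0.11, again with no overlap (limma, adjusted p 0.00642). The levels of Cyp2c37, Cyp2c50 and Cyp2c54 ran close together over the mice, so these may not be separate changes. A dimmer probe for another Cyp2c50 transcript gave 0.55, which was not called (limma, adjusted p 0.184). Cyp2d22, a mouse relative of human CYP2D6, ranged over 0.64, 0.74 and 1.03 in LWT and 1.19, 1.31 and 1.60 in LKO, without overlap, a difference of 0.57 ± 0.10 (limma, adjusted p 0.00178). Cyp2d34 ranged over 0.55, 1.03 and 1.5 against 1.28, 1.65 and 1.84, with overlap, and differed by 0.58 ± 0.13 (limma, adjusted p 0.0246). Its level ran parallel to that of the much brighter Cyp2d9 in every mouse. The end of the Cyp2d34 probe recurs at the start of the Cyp2d9 probe, a stretch too short for the probe alignment. Cyp2d9 gave 0.49 ± 0.13 and was not called (limma, adjusted p 0.0589). Whether the Cyp2d34 probe reads Cyp2d9 was not tested. The Cyp2d34 call was lost when any 1 of 7 mice was left out, with adjusted p up to 0.0793.

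**Figure D2:**
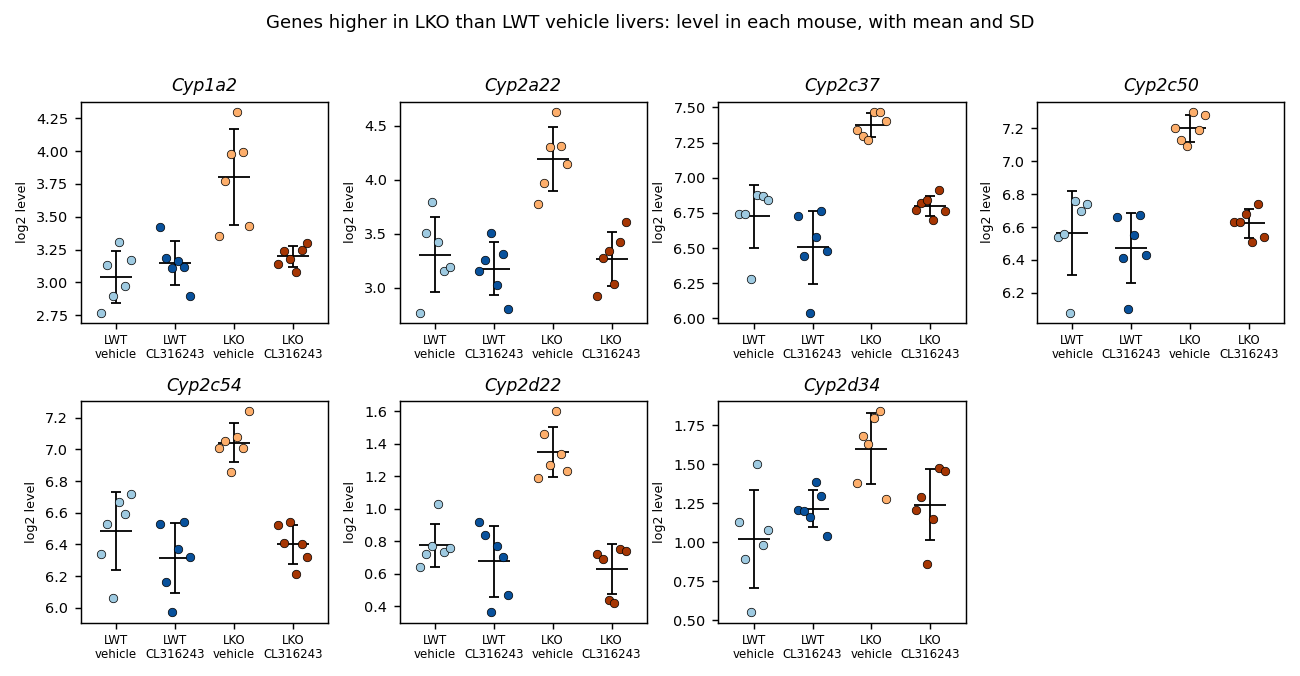
Log2 level (y axis) in each mouse (points) with the mean and SD (bars) of the 4 groups (x axis) for the 7 genes higher in LKO than in LWT vehicle livers. The mean of the LKO vehicle mice is the highest in each panel, with single mice overlapping other groups for Cyp1a2, Cyp2a22 and Cyp2d34.

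In LKO livers CL316243 lowered each of these 7 genes. The comparison uses the same 6 LKO vehicle mice as the one above, so the values are given side by side and are not independent of it. The same holds for the interaction, which contains the vehicle difference by which these 7 genes were picked. Cyp1a2 fell by 0.60 ± 0.13 to 3.08, 3.21 and 3.30 (lowest, median and highest, limma, adjusted p 0.000766), below every LKO vehicle mouse. Cyp2a22 fell by 0.92 ± 0.16 (limma, adjusted p 0.000115) and Cyp2d22 by 0.72 ± 0.10 (limma, adjusted p 8.08e-06), also without overlap. Cyp2c37 and Cyp2c50 each fell by 0.58, Cyp2c54 fell by 0.64 and Cyp2d34 fell by 0.36 (limma, adjusted p 0.00017, 0.000124, 8.08e-05 and 0.0321). In LWT livers the differences of the 7 genes under CL316243 lay between -0.22 and 0.19 and none was called (limma, adjusted p 0.106 to 0.582). The CL316243-treated livers, which enter neither vehicle group, showed LKO minus LWT differences of -0.05 to 0.30 for the 7 genes (limma, adjusted p 0.0605 to 0.939). The response itself differed between genotypes for Cyp1a2 (-0.71 ± 0.18, limma, adjusted p 0.0217), Cyp2a22 (-0.80 ± 0.23, limma, adjusted p 0.0433) and Cyp2d22 (-0.63 ± 0.14, limma, adjusted p 0.00833). The Cyp2a22 interaction was lost when any 1 of 16 of the 24 mice was left out, with adjusted p up to 0.0796. It was lost as well with the slide as a block (adjusted p 0.0543), with slide and row terms (0.0606), with quantile normalization (0.0539) and without the filter on dim probes (0.0951). For Cyp2c50 the interaction was -0.49 ± 0.14 and missed the threshold (limma, adjusted p 0.051). With every kept probe in the fit the same Cyp2c50 probe passed it (limma, adjusted p 0.0493).

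Cyp3a25 and Cyp3a57, steroid hydroxylases of the Cyp3a subfamily, fell in both genotypes. Cyp3a25 ranged over 5.63, 5.71 and 5.93 in LWT vehicle livers and 4.37, 4.80 and 5.28 after CL316243. The groups did not overlap, and the fall was 0.96 ± 0.16, to 51.4% of vehicle (limma, adjusted p 6.33e-05). In LKO it ranged over 5.04, 5.65 and 5.88, then 4.27, 4.80 and 5.15, with slight overlap and a fall of 0.83 ± 0.16 (limma, adjusted p 0.000291). Cyp3a57 fell by 1.0 ± 0.17 in LWT (limma, adjusted p 8.19e-05) and fell by 0.90 ± 0.17 in LKO (limma, adjusted p 0.000247). Since the probes differ at 3 of 52 shared bases, as shown above, their signals cannot be told apart. The interaction was 0.13 ± 0.23 for Cyp3a25 and 0.10 ± 0.24 for Cyp3a57 (limma, adjusted p 0.827 and 0.879). Cyp3a59, whose own probe lists no other gene but whose transcript the Cyp3a25 probe lists, fell by 0.33 ± 0.13 in LWT (limma, adjusted p 0.0395). In LKO Cyp3a59 fell by 0.55 ± 0.13 without overlap (limma, adjusted p 0.00133). The LWT call of Cyp3a59 was lost when any 1 of 7 mice was left out, with adjusted p up to 0.116.

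Promoter sequence is shown for Cyp3a25 and Cyp3a57 because both probes fell in both genotypes. As their signals cannot be told apart, a joint response of the 2 genes is not shown. RefSeq promoters (build GRCm38.p6) were found for 49 of the 57 members, and the 250 bases before each start were searched on both strands. For Cyp3a25 that window is chr5:146009619-146009868 (minus strand, the more upstream of 2 starts) and for Cyp3a57 chr5:145345019-145345268 (plus strand). Over 252 aligned columns they are 88.9% identical. Capitals mark AGGTCA, the half-site of many nuclear receptors, and its reverse complement TGACCT.
Cyp3a25: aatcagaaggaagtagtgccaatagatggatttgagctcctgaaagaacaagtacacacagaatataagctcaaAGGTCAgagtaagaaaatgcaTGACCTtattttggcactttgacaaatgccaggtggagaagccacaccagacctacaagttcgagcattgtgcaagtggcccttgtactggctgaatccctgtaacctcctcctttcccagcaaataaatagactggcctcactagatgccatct
Cyp3a57: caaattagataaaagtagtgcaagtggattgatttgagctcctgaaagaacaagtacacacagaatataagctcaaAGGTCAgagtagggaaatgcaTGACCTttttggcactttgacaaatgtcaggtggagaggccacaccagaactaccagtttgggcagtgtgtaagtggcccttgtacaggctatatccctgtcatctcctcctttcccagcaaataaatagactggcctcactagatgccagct
Both carry the motif in both orientations, beginning 176 and 155 bases before the start in Cyp3a25 and 174 and 153 in Cyp3a57. AGGTCA was present in 15 of the 49 members (30.6%) and 14.0% of 32851 promoters, among them Cyp3a11, Cyp3a59, Cyp2b9 and Cyp2c29. CAAAGTCCA, a motif of HNF4α, a hepatocyte nuclear receptor, was present in 8 members (16.3%), including Cyp2c40, Cyp2c67, Cyp2c70 and Cyp3a11, and in 0.4% of all promoters. TATAAA was present in 46.9% of members and 12.4% of all promoters, and GCGTG, the core of the element bound by AhR, in 14.3% and 28.2%. Paralogs share promoter sequence, so these members are not independent, and a match does not show binding.

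The remaining Cyp3a members responded differently. Cyp3a11, the main PXR target of mouse liver, ranged over 4.65, 5.24 and 6.00 in LWT vehicle, 4.84, 5.25 and 5.61 in LWT CL316243, 5.07, 5.44 and 5.81 in LKO vehicle, and 4.63, 4.84 and 4.91 in LKO CL316243. It fell in LKO by 0.64 ± 0.17 with no overlap (limma, adjusted p 0.00551), while its LWT difference was -0.03 ± 0.17 (limma, adjusted p 0.924), and the LWT sign turned to 0.12 without LWT vehicle mouse 3, which had the highest Cyp3a11 level. The interaction was -0.61 ± 0.25 (limma, adjusted p 0.172), and without that mouse it was called (limma, adjusted p 0.0443). Cyp3a16, mainly known as a fetal form, fell by 0.42 in LKO without overlap (limma, adjusted p 0.0185). Its level followed that of Cyp3a11, somewhat lower, in every mouse, so the fall may not be a separate change. Whether the Cyp3a16 probe, counted among those not shared, reads Cyp3a11 was not tested. Cyp3a13 was the Cyp3a member that rose, by 0.54 ± 0.17 in LKO (limma, adjusted p 0.0121), with ranges of 4.10 to 4.67 under vehicle and 4.55 to 5.26 under CL316243.

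Cyp2b10 and Cyp2b9, targets of CAR, rose in LKO livers and had the largest standard errors of the 49 tested members. Cyp2b10 ranged over -3.63, -1.57 and 0.26 in LWT vehicle, -1.30, -0.53 and 1.30 in LWT CL316243, -2.65, -0.36 and 0.08 in LKO vehicle, and -0.56, 1.07 and 1.88 in LKO CL316243. The groups overlapped in both genotypes. The increase was 1.92 ± 0.66 in LKO, or 3.79-fold (limma, adjusted p 0.0231), and the LWT difference was 1.46 ± 0.66 and was not called (limma, adjusted p 0.0863). The LKO call was lost without vehicle mouse 4 or 6 or CL316243 mouse 2 or 5 (adjusted p up to 0.0649), and the LWT difference was called without vehicle mouse 3 (adjusted p 0.0287). Responses did not differ detectably between genotypes (0.47 ± 0.93, limma, adjusted p 0.852). Cyp2b9 gave 1.80 ± 0.64 in LKO (limma, adjusted p 0.0291) and 1.19 ± 0.64 in LWT (limma, adjusted p 0.153) on a probe that also lists Cyp2b10. Its LKO call was lost when any 1 of 5 mice was left out (adjusted p up to 0.0843). A dimmer probe for Cyp2b10 gave 1.60 in LKO and was not called (limma, adjusted p 0.0866).

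**Figure D3:**
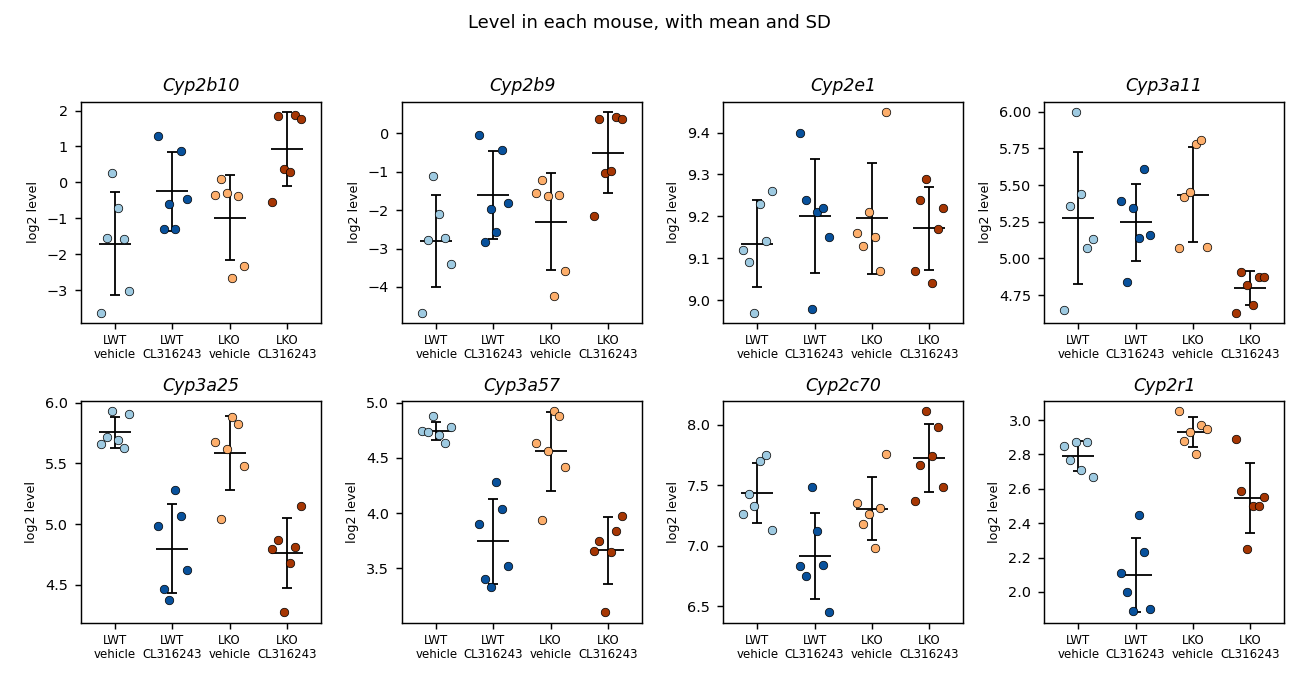
Log2 level (y axis) in each mouse (points) with the mean and SD (bars) of the 4 groups (x axis) for Cyp2b10, Cyp2b9, Cyp2e1, Cyp3a11, Cyp3a25, Cyp3a57, Cyp2c70 and Cyp2r1. Cyp2b10 runs from -3.63 to 0.26 among LWT vehicle mice alone, while Cyp2c70 moves down after CL316243 in LWT and up in LKO.

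Cyp2c70 was the 1 member called in opposite directions in the genotypes. It encodes the enzyme that makes muricholic acids, which are bile acids of the mouse. It ranged over 7.13, 7.38 and 7.75 in LWT vehicle and 6.45, 6.83 and 7.49 in LWT CL316243, and over 6.98, 7.28 and 7.76 in LKO vehicle and 7.37, 7.71 and 8.11 in LKO CL316243. Groups overlapped within each genotype. It fell by 0.52 ± 0.16 in LWT (limma, adjusted p 0.0135) and rose by 0.42 ± 0.16 in LKO (limma, adjusted p 0.0417). The difference between the responses was 0.94 ± 0.23 (limma, adjusted p 0.0154), and under CL316243 LKO livers were 1.76-fold above LWT livers (0.81 ± 0.16, limma, adjusted p 0.000957). The LKO rise alone was lost when any 1 of 9 mice was left out, with adjusted p up to 0.107, and with either slide term, without the filter on dim probes, with quantile normalization, in the authors' deposited log2 values and where a 1.5-fold change was also asked for. Within slides 1, 2 and 3 it was 0.39, 0.16 and 0.71.

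Of the other 11 Cyp2c members tested, 9 fell with CL316243 in LKO and 1, Cyp2c29, in LWT, where 19.4% of all genes were called lower in each genotype. On the brightest probe of each gene limma called no interaction among the 11, and 5 had an unadjusted p under 0.05. With every kept probe in the fit, the interaction was called for a dimmer Cyp2c44 probe (-0.85, limma, adjusted p 0.0314). It was called there for the brightest Cyp2c50 probe too (-0.49, limma, adjusted p 0.0493). For these 2 genes a genotype difference in response thus depended on the probe or the fit. Cyp2c40, a hydroxylase of arachidonic acid, ranged over 4.15, 4.38 and 4.83 in LKO vehicle and 3.28, 3.47 and 4.36 in LKO CL316243, a fall of 0.84 ± 0.17 (limma, adjusted p 0.000436). The overlap came from CL316243 mouse 3, at 4.36, where the other 5 mice reached at most 3.56. Cyp2c67, Cyp2c68 and Cyp2c69, whose probes or listed transcripts overlap with each other or with Cyp2c40, had differences of -0.45, -0.53 and -0.41 in LKO (limma, adjusted p 0.0131, 0.0089 and 0.0274). They cannot be counted as separate changes. Cyp2c44, named Cyp2c23 in RefSeq, fell by 0.42 ± 0.11 in LKO (limma, adjusted p 0.00527), and its dimmer probe gave -0.80 there (limma, adjusted p 0.000558). Cyp2c29, an abundant drug-metabolising form, fell by 0.21 ± 0.08 in LWT (limma, adjusted p 0.0452) and fell by 0.24 ± 0.08 in LKO (limma, adjusted p 0.0184). Its LWT call was lost when any 1 of 13 mice was left out, with adjusted p up to 0.117. Cyp2c29 was also 0.27 ± 0.08 higher in LKO than in LWT under CL316243 (limma, adjusted p 0.0202), a call lost without LWT CL316243 mouse 6 or LKO CL316243 mouse 1 (adjusted p up to 0.0592).

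Among the Cyp2d genes, relatives of the human debrisoquine hydroxylase, 5 of 9 tested were lower with CL316243 in LKO and 2 in LWT. Of all genes tested 19.4% were called lower in each genotype. Cyp2d13 had the largest fall of these. It ranged over 1.98, 2.30 and 2.38 in LKO vehicle and -0.96, 0.71 and 1.43 in LKO CL316243, with no overlap, and fell by 1.69 ± 0.30, to 31.1% of vehicle (limma, adjusted p 0.000145). A second Cyp2d13 probe gave a smaller difference in LKO, -0.98 (limma, adjusted p 1.32e-05), and was not called in LWT (-0.33, limma, adjusted p 0.0645) or for LKO minus LWT under CL316243 (-0.39, limma, adjusted p 0.0637). On its brightest probe Cyp2d13 fell in LWT by 0.79 ± 0.30 (limma, adjusted p 0.045), a call lost when any 1 of 16 mice was left out (adjusted p up to 0.13). Under CL316243 the LKO minus LWT difference on that probe was -0.92 ± 0.30 (limma, adjusted p 0.0402), a call lost when any 1 of 8 mice was left out (adjusted p up to 0.0953). Both of these calls were also lost with the slide as a block (adjusted p 0.0536 and 0.0503), and within slides 1, 2 and 3 the genotype difference was -2.19, 0.17 and -0.76. Cyp2d10 fell by 0.34 ± 0.10 in LWT (limma, adjusted p 0.00958) and fell by 0.35 ± 0.10 in LKO (limma, adjusted p 0.00824). Cyp2d12 fell by 0.33 ± 0.09 in LKO, without overlap (limma, adjusted p 0.00434).

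Cyp2r1, Cyp2g1 and Cyp2j8 fell in both genotypes, and Cyp2f2 and Cyp2t4 were called with CL316243 in LWT. Cyp2r1, the vitamin D 25-hydroxylase, ranged over 2.67, 2.81 and 2.87 in LWT vehicle and 1.89, 2.05 and 2.45 after CL316243. No mouse overlapped, and the fall of 0.69 ± 0.09, to 61.9% of vehicle, had the smallest adjusted p of any member in LWT (limma, 6.19e-06). In LKO it fell by 0.38 ± 0.09 (limma, adjusted p 0.00255). Under CL316243 the LKO level was 0.45 ± 0.09 above LWT (limma, adjusted p 0.00167), but the difference between responses, 0.31 ± 0.13, was not called (limma, adjusted p 0.21). Cyp2g1, an olfactory P450 of low signal in liver, fell by 1.41 ± 0.46 in LWT (limma, adjusted p 0.0185) and fell by 2.13 ± 0.46 in LKO (limma, adjusted p 0.000821). Its LKO mice went from a median of -1.09 to -2.93, and 5 of 6 arrays of each CL316243 group were well above background. The LWT call was lost without CL316243 mouse 3 (adjusted p 0.0569) and with normexp background correction (-0.57, adjusted p 0.0628). Cyp2j8, of the arachidonic acid epoxygenase subfamily, fell by 0.19 ± 0.07 in LWT (limma, adjusted p 0.0446), lost when any 1 of 11 mice was left out (adjusted p up to 0.131), and fell by 0.31 ± 0.07 in LKO with no overlap (limma, adjusted p 0.00193). Cyp2f2, a P450 that activates naphthalene, fell by 0.20 ± 0.06 in LWT (limma, adjusted p 0.0173), and Cyp2t4 rose there by 0.38 ± 0.14 at a dim probe (limma, adjusted p 0.0397), lost when any 1 of 8 mice was left out (adjusted p up to 0.113). Cyp2f2 was also 0.21 ± 0.06 higher in LKO than LWT under CL316243 (limma, adjusted p 0.0246), lost when any 1 of 6 mice was left out (adjusted p up to 0.0664).

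That comparison of LKO with LWT under CL316243 called 5 members, 4 higher and 1 lower (10.2%), where 15.9% of all genes were called, 7.74% higher and 8.17% lower. The 5 were Cyp2c70, Cyp2r1, Cyp2c29 and Cyp2f2, all higher, and Cyp2d13. The median member difference was 0.02, beside 0.01 over all genes. The count was 2 without LWT CL316243 mouse 6 and 3 without LKO CL316243 mouse 2.

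Of the other Cyp1 genes, Cyp1a1, a classical AhR target with low signal here, ranged over -3.76, -3.54 and -3.16 in LKO vehicle and -6.26, -4.41 and -3.33 in LKO CL316243. It fell by 1.03 ± 0.34 (limma, adjusted p 0.0202), and the call was lost without CL316243 mouse 3, the lowest (adjusted p 0.0514). It was lost too when only the compared groups entered the fit (adjusted p 0.0593), and after normexp background correction it was -0.21 (adjusted p 0.106). Within slides 1, 2 and 3 the difference was -2.11, -0.16 and -0.81. Cyp1b1, a P450 of steroid and hydrocarbon metabolism outside the hepatocyte, gave fitted differences of 1.04 ± 0.30 in LWT (limma, adjusted p 0.00902) and 1.08 ± 0.30 in LKO (limma, adjusted p 0.00687). It passed the filter on dim signal only through the CL316243 groups. It was well above background on 3 and 4 of 6 arrays of the LWT vehicle and CL316243 groups and on 1 and 5 of 6 in LKO, so the size of the difference rests on vehicle values mostly not above background. The summed linear level of 8 monocyte and neutrophil markers ranged from 5.73 to 9.57 in LWT vehicle, 8.05 to 21.3 in LWT CL316243, 6.36 to 9.51 in LKO vehicle and 10.5 to 50.9 in LKO CL316243. Of these markers 2 were called higher and 1 lower in LWT, and 4 were called higher in LKO, S100a8 and S100a9 among them in both. Those of 10 Kupffer cell and macrophage markers had medians between 75.8 and 82.7 in all groups, and those of 10 stellate cell and fibroblast markers had medians of 64.1 and 68.1 under vehicle and 75.6 and 79.3 under CL316243. For 7 cholangiocyte markers the summed level ranged from 4.26 to 7.42 in LKO vehicle and 7.71 to 14.5 in LKO CL316243, without overlap, and had medians of 6.09 and 8.51 in LWT. Of them 1 was called higher in LWT (Sox9) and 2 in LKO (Sox9 and Spp1). The part of these cell types in the Cyp1b1 result was not tested.

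Cyp2e1, the ethanol-inducible P450 of the pericentral zone, depended on the probe and on the scaling. On its brightest probe it ranged over 8.97, 9.13 and 9.26 in LWT vehicle and 8.98, 9.21 and 9.40 in LWT CL316243, and over 9.07, 9.15 and 9.45 in LKO vehicle and 9.04, 9.19 and 9.29 in LKO CL316243. All 4 groups overlapped, and the differences were 0.07 ± 0.07 in LWT (limma, adjusted p 0.525) and -0.02 ± 0.07 in LKO (limma, adjusted p 0.836). With quantile normalization the LWT value was -0.17 and was called (limma, adjusted p 0.0179), and it was -0.17 in the authors' deposited log2 values too. The LKO value was -0.25 and was called under both (limma, adjusted p 0.00092 and 0.000968), so no direction can be given for LWT and the LKO call depends on the scaling. A dimmer probe, shown here because it answered differently, gave -0.01 in LWT (limma, adjusted p 0.929) and -0.35 in LKO (limma, adjusted p 0.00683); it lies on chromosome 7 at 147959585-147959644 (plus strand).
Cyp2e1: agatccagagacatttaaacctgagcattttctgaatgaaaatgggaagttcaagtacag
Cyp2u1, a fatty acid hydroxylase, also depended on the probe. Its brightest probe (chromosome 3, 130996343-130996402, minus strand) is mostly a repeat of 2 bases, shown in capitals for 30 of its 32 bases.
Cyp2u1: GTGTGTGTGTGTGTGTGTGTGTGTGTGTGT
That probe gave -0.22 in LWT and -0.11 in LKO, not called (limma, adjusted p 0.264 and 0.596). The other probes, of much lower signal, gave -1.39 and -1.58 in LWT (limma, adjusted p 0.00807 and 2.34e-05) and -1.06 and -0.91 in LKO (limma, adjusted p 0.0353 and 0.00443). The rule that the brightest probe stands for a gene therefore leaves Cyp2u1 uncalled, although both of the other probes were lower in both genotypes. Of the 12 tested members with several probes, the call differed between probes for 3 in LWT and 7 in LKO. In LKO the dimmer probes gave the more negative difference for all of the 12 but Cyp2d13. For Cyp2c50 the dimmer probe gave -1.14 there, beside -0.58 (limma, adjusted p 2.85e-05 and 0.000131). The counts of called members rest on the brightest probes.

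The genes that supply P450 enzymes with electrons and haem, and those that regulate them, were counted as lists. Beside each CL316243 count here and in the lists below stand the shares of all genes tested. These were 18.9% higher and 19.4% lower in LWT, and 20.9% higher and 19.4% lower in LKO. Of 16 redox partner and haem genes, 2 rose and 8 fell with CL316243 in LWT (median -0.21, beside 0.01 over all genes), and 1 rose and 8 fell in LKO (median -0.38, beside 0.03). Alad, an early enzyme of haem synthesis, fell by 0.41 ± 0.14 in LWT (limma, adjusted p 0.0235) and fell by 0.57 ± 0.14 in LKO (limma, adjusted p 0.00228). Fech, which inserts the iron, had differences of -0.47 and -0.40 (limma, adjusted p 0.000454 and 0.00196). Cpox, which makes protoporphyrinogen, rose in LWT by 0.73 ± 0.24 (limma, adjusted p 0.0182) and fell by 0.68 ± 0.24 in LKO (limma, adjusted p 0.0262), and its interaction was called (-1.41 ± 0.34, limma, adjusted p 0.0138). Por rose in LWT by 0.80 ± 0.21 (limma, adjusted p 0.00528) and was -0.07 ± 0.21 in LKO (limma, adjusted p 0.816), with an interaction of -0.87 ± 0.30 that was not called (limma, adjusted p 0.107). Alas1, the first enzyme of haem synthesis, was 0.61 ± 0.25 and -0.37 ± 0.25 (limma, adjusted p 0.0558 and 0.242). Hmox1, which degrades haem, rose by 2.46 ± 0.38 in LKO (limma, adjusted p 3.04e-05) and gave 0.83 ± 0.38 in LWT (limma, adjusted p 0.09).

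**Figure D4:**
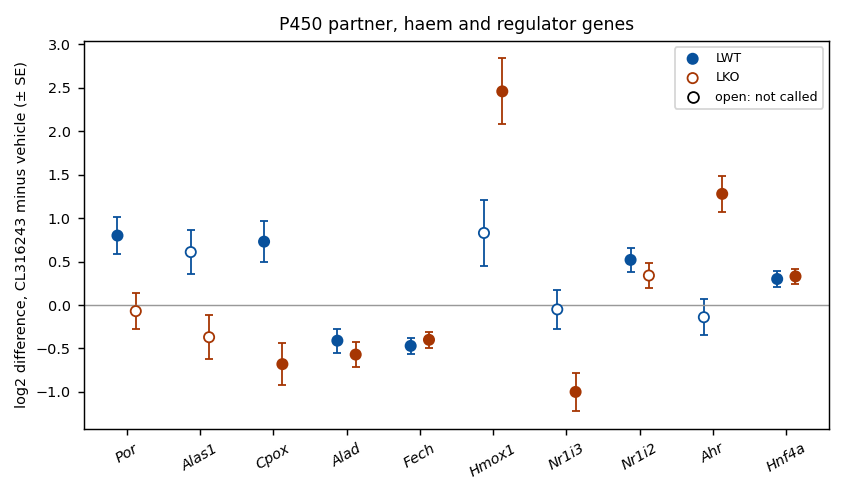
Log2 difference of CL316243 minus vehicle (y axis, ± SE) for 10 partner, haem and regulator genes (x axis) in LWT (blue) and LKO (red-brown), filled where called and open where not. Fech and Alad fall in both genotypes, Cpox moves in opposite directions, and Ahr and Hmox1 are high in LKO.

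Of 24 tested receptors and factors, 6 rose and 6 fell in LWT and 7 rose and 5 fell in LKO. Nr1i3, which encodes CAR, fell by 1.0 ± 0.22 in LKO (limma, adjusted p 0.000861), while Cyp2b10 rose there, and gave -0.05 ± 0.22 in LWT (limma, adjusted p 0.892). Nr1i2, which encodes PXR, rose in LWT by 0.52 ± 0.14 (limma, adjusted p 0.00606) and gave 0.34 ± 0.14 in LKO (limma, adjusted p 0.0626). Ahr rose in LKO by 1.28 ± 0.21 (limma, adjusted p 5.83e-05), while Cyp1a1 and Cyp1a2 fell there, and its interaction was 1.42 ± 0.30 (limma, adjusted p 0.00505). Hnf4a rose by 0.30 and 0.33 (limma, adjusted p 0.00936 and 0.00396). Of 24 tested non-P450 genes known to respond to CAR or PXR, such as transporters and conjugating enzymes, 1 rose and 6 fell in LWT and 3 rose and 12 fell in LKO. Abcc2, Ugt2b34, Ugt2b35, Sult1d1 and Thrsp fell in both genotypes. Gadd45b, a stress and CAR response gene, went against most of this list and was its only gene higher in LWT. It rose by 3.41 ± 0.39 in LWT and 2.79 ± 0.39 in LKO (limma, adjusted p 6.61e-07 and 1.11e-05). Of 8 tested non-P450 AhR response genes, 3 rose and 1 fell in LWT and 4 rose and 2 fell in LKO. Aldh3a1 and Lgals3 rose and Ugt1a6a fell in both genotypes, and in LKO Ugdh rose and Nqo1 fell. Tiparp, an AhR target and repressor, rose by 1.64 and 2.08 (limma, adjusted p 0.0126 and 0.00216).

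Other features that accompany P450 expression moved as follows. Acute phase reactants, liver proteins made in inflammation, rose in both genotypes, 20 of 21 in LWT and 21 of 21 in LKO (medians 1.42 and 1.61). Most called P450 genes were lower in both genotypes. The share of members called was 26.5% in LWT, below the 38.3% of all genes, and 65.3% in LKO, above the 40.3% of all genes. Of 20 pericentral genes outside the P450 families, 3 rose and 3 fell in LWT and 2 rose and 8 fell in LKO, and of 18 periportal genes 1 rose and 6 fell in LWT, with 4 lower in LKO. Nkd1, a pericentral Wnt target, stood at 0.60 ± 0.11 in LKO minus LWT vehicle (limma, adjusted p 0.00415), and its CL316243 difference was -0.92 ± 0.11 in LKO and -0.38 ± 0.11 in LWT (limma, adjusted p 2.17e-06 and 0.0104). Of 19 tested male-biased genes, 1 rose and 7 fell in each genotype, and of 13 tested female-biased genes 4 rose and 3 fell in LWT and 2 rose and 2 fell in LKO. The part of inflammation, zonation or sex-biased regulation in the P450 results was not tested.

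Of 24 P450 genes of other families that act on sterols, steroids or fatty acids, 2 were called in LKO minus LWT vehicle livers, Cyp4a10 and Cyp4a31. Both were lower, whereas the 7 called members of families 1 to 3 were higher. Over all genes tested, 0.398% were called higher in that comparison and 0.778% lower. With CL316243, 5 of the 24 rose and 4 fell in LWT, and 6 rose and 8 fell in LKO.

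Among the 49 tested, 15 were called in none of the 5 comparisons, with differences of -0.40 to 0.19 for CL316243 in LWT and -0.77 to 0.18 in LKO. They include the abundant Cyp2a5, Cyp2d26 and Cyp2j5, besides Cyp2e1 and Cyp2u1. These calls are for the brightest probe. The dimmer probe of Cyp2j5 gave -0.36 in LWT and -0.54 in LKO (limma, adjusted p 0.0365 and 0.00268), and that of Cyp2d26 gave -0.27 in LKO (limma, adjusted p 0.0145). In LKO the dimmer probes of Cyp2j6 and Cyp2j9 were also called, at -0.24 and -0.90 (limma, adjusted p 0.0488 and 0.0368). Cyp2a4 and Cyp2a5, the steroid and coumarin hydroxylases whose transcripts are hard to separate, gave 0.51 ± 0.16 and 0.28 ± 0.12 in LKO minus LWT vehicle (limma, adjusted p 0.163 and 0.473). Cyp2a12, a bile acid hydroxylase, and Cyp2j13 had small called differences in LKO, of -0.21 and -0.22 (limma, adjusted p 0.0333 and 0.0108). The 8 members that did not pass the filter were Cyp2b13, Cyp2b19, Cyp2b23, Cyp2c39, Cyp2c65, Cyp2c66, Cyp2j11 and Cyp3a44. Of these, Cyp2c65 was well above background on 3 of 6 arrays of LKO vehicle livers, and the others, on their brightest probe, on at most 1 array of a group.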

How the data were processed

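The authors hybridised Cy3-labelled cRNA from 200 ng of liver RNA per mouse to single-colour arrays and deposited Agilent Feature Extraction 10.10.1.1 files with background-subtracted intensity, per the file headers. Their deposited log2 table matched quantile-normalized log2 median signals (99.26% of values within 0.01). Here, log2 intensity minus the array's 75th percentile was used, and spots with outlier flags were left out. Probes had to exceed background clearly on 4 or more of the 6 arrays of some group (32037 of 56605 did), and the brightest kept probe stood for a gene. Groups were compared with limma 3.58.1 in R 4.3.3, 1 mean per group. P-values measure the spread between mice, each read on 1 array. Arrays lay on 3 slides, each with 2 mice per group. Mice with the same replicate number were not treated as pairs, and the labels do not say whether they were (median correlation 0.055, range -0.18 to 0.42). Members, lists and motifs were chosen with earlier results of these data known. Named by rule were Cyp2b10, Cyp3a11, Cyp2e1 and Cyp1a2 and up to 12 called members per direction; other names were added after their values were seen. The test was checked on simulated data.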

Additional observations from a re-analysis of the deposited data

Results flagged for a closer look

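Responses to CL316243 differed between genotypes, by the interaction term, for Cyp1a2 (LKO minus LWT -0.71), Cyp2a22 (-0.80, a call lost under several alternatives), Cyp2d22 (-0.63) and Cyp2c70 (0.94).

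Of 108 checks of named genes within a group, 11 found 1 mouse far from the other 5, where chance gives about 1 in 20. LWT vehicle mouse 3 was lowest for Cyp2c37 (6.28), Cyp2c50 (6.08) and Cyp2d13 (1.82), and mouse 4 was highest for Cyp2d22 (1.03) and Cyp2f2 (8.59). LKO vehicle mouse 2 was lowest for Cyp2d13 (1.98), mouse 4 lowest for Cyp2f2 (8.45) and mouse 6 highest for Cyp2e1 (9.45). LKO CL316243 mouse 3 was highest for Cyp2c40 (4.36) and lowest for Cyp3a57 (3.10), and mouse 6 was lowest for Cyp2t4 (-4.05). LKO CL316243 mouse 3 held the lowest or the highest value of its group for 30 of the 49 tested genes, the most of any mouse, and without it 7 interactions were called in place of 4. LWT vehicle mouse 3 and LWT CL316243 mouse 3 each did so for 25.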

How the results depend on the processing

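Leaving out 1 mouse at a time gave 8 to 14 called members for CL316243 in LWT (8 without LWT vehicle mouse 6 or LWT CL316243 mouse 2 or 3), 27 to 33 in LKO, 3 to 7 for the interaction, 6 to 9 for LKO against LWT under vehicle and 2 to 7 under CL316243. Without the filter on dim probes the counts were 7 in LWT, 2 for the interaction and 2 for LKO against LWT under CL316243, with more genes in the adjustment. That last count was 8 in the authors' deposited log2 table and 3 with only the compared groups in the fit. Asking also for a 1.5-fold change left 6 in LWT, 14 in LKO, 4 for the genotypes under vehicle and 2 under CL316243. The highest counts for CL316243, 18 in LWT and 39 in LKO, came from the deposited log2 table. With the replicate number as a block the counts were 13 and 33 for CL316243 in LWT and LKO, 5 for the interaction, and 9 and 7 for the genotypes under vehicle and CL316243, and 10 of 24 mice correlated best with mice of their own number, a hint from the data only.

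Of 61 differences of named genes, 46 were called, and no called difference changed sign under the 11 alternatives to the scaling, filter, probe or model or without 1 mouse. Over these alternatives 600 of 662 values kept their side of the threshold, 57 lost the call, 3 gained it and 2 changed sign. Cyp2e1 with CL316243 in LWT, which was not called, turned to -0.17 with quantile normalization and -0.17 in the deposited table. Leaving out 1 mouse turned uncalled differences near 0: Cyp3a11 in LWT (range -0.15 to 0.12) to 0.12, 0.01 and 0.05 (without LWT vehicle mouse 3 or 4 or LWT CL316243 mouse 2), Cyp2e1 in LKO (range -0.05 to 0.03) to 0.03 and 0.00 (without LKO vehicle mouse 6 or LKO CL316243 mouse 4), and, for LKO against LWT under CL316243, Cyp2e1 (range -0.07 to 0.01) to 0.01 (without LWT CL316243 mouse 1) and Cyp1a2 (range 0.00 to 0.10) to 0.00 (without LWT CL316243 mouse 6). Within slide 2 alone, 1 called difference changed sign, Cyp2d13 in LKO against LWT under CL316243 turned to 0.17. The causes were not tested. The 6 mice a group and probes shared between paralogs limit what can be told apart.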
